A study of Homo sapiens with 4 samples.

Results

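Small nuclear RNAs (snRNAs) are short noncoding RNAs that form the core of the spliceosome. Described here are 8 of them, each taken as a listed Ensembl gene ID, among 60676 IDs counted in each library. The 5 of the major spliceosome are RNU4-1 (ENSG00000200795), RNU4-2 (ENSG00000202538), RNU2-2P (ENSG00000222328), RNU5A-1 (ENSG00000199568) and RNU5B-1 (ENSG00000200156). The 3 of the minor spliceosome are RNU4ATAC (ENSG00000264229), RNU6ATAC (ENSG00000221676) and RNU11 (ENSG00000274978). All 8 had a row in all 4 libraries. The count files pair no ID with a name, so the pairing is that of the list. RefSeq holds all 8 names or synonyms as snRNA genes, and its current symbol for RNU2-2P is RNU2-2.

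The RNA came from MiaPaCa, an established human pancreatic cancer cell line, transfected to express FLAG-tagged SRP9 that carries a nuclear localisation signal. SRP9 is part of the signal recognition particle (SRP). RNA immunoprecipitation (RIP) gave 1 library for SRP9 variant 1 and 1 for SRP9 variant 2, and whole-cell RNA (input) gave 1 library for the variant 1 cells and 1 for the variant 2 cells. All 4 thus came from cells that carry a tagged, nucleus-directed SRP9 and a green fluorescent reporter, had been selected with Geneticin and were sorted on the reporter. No precipitation without tagged SRP9 was analysed here. No marker of the cell line and no level of SRP9 was read, since the IDs could not be paired with other gene names.

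As background, the major spliceosome removes most introns and the minor spliceosome a small, distinct class. In each, U2 (or U12) pairs with the branch site, U6 (or U6atac) forms the catalytic centre, and U4 (or U4atac) holds it in an inactive pairing until activation. U5 serves both and aligns the exon ends. U11 pairs with the 5′ splice site of minor introns. These RNAs act in the nucleus, where the tagged protein was sent. SRP9, together with SRP14, binds the Alu domain of the 7SL RNA, a fold that the spliceosomal snRNAs do not have.

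The RIPs of variants 1 and 2 held 3921361 and 5211354 total counts, against 50454080 and 58815384 for their inputs. The inputs were thus 12.9 and 11.3 times deeper than their RIPs. A count was present for 44658 and 51589 IDs in RIP, against 28372 and 26720 in the inputs. A count of 0 allows up to 0.765 CPM (a count scaled to its library's total) in the variant 1 RIP and 0.576 CPM in the variant 2 RIP, taken as 3 counts. If both reads of a fragment were counted, which the sources used here do not give, it allows 1.53 and 1.15 CPM. Intervals below are exact at 95% and cover counting error only, since reads of amplified libraries are not independent molecules. Some counts hold a fraction of a read, and the interval formulas were evaluated at those values.

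All 8 snRNAs were lower in both RIPs than in both inputs. The 8 IDs together took 0.00842% of the counts in the variant 1 RIP (exact binomial interval 0.00754% to 0.00938%) and 0.00271% in the variant 2 RIP (0.00228% to 0.00319%), against 0.0358% (0.0353% to 0.0364%) and 0.0374% (0.0370% to 0.0379%) in the matching inputs. The 5 major IDs summed to 319.83 and 126 counts in RIP, against 16090 and 19531 in the inputs, and the 3 minor IDs to 10.5 and 15 counts, against 1991 and 2493. The inputs were close to each other, and the RIPs were below them and apart from each other.

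**Figure D1:**
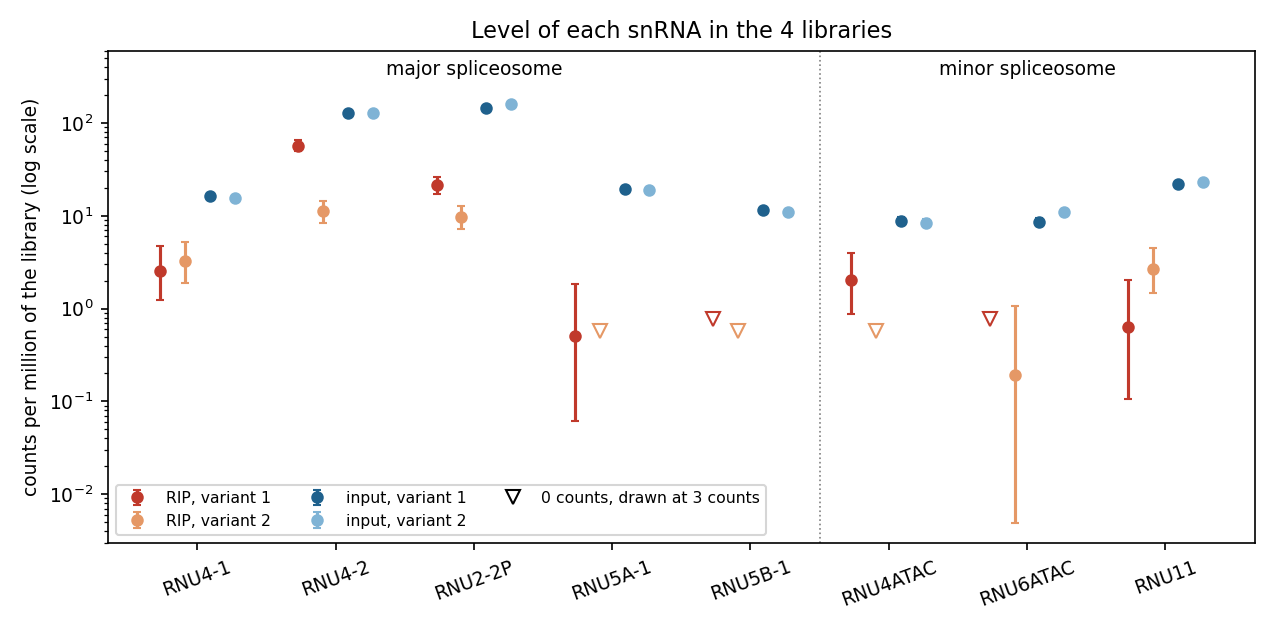
Level of each snRNA in CPM on a log scale in the RIPs (red and orange) and the inputs (dark and light blue), 1 library per point, with exact 95% Poisson intervals; an open triangle marks 0 counts and is drawn at 3 counts. For all 8 IDs both RIP points lie under both input points, closest for RNU4-2 in the variant 1 RIP (57.1 CPM against 127 CPM in its input).

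RNU4-2 and RNU4-1 are closely similar copies of the gene for U4, the RNA that keeps U6 inactive, and both overlap SIRT4 in RefSeq. In the variant 1 RIP, RNU4-2 had 224 counts, or 57.1 CPM (exact Poisson interval 49.9 to 65.1), and 58 counts (11.1 CPM, 8.45 to 14.4) in the variant 2 RIP, against 6386.45 counts (127 CPM) and 7534.1 counts (128 CPM) in the matching inputs. The variant 1 RIP was thus the highest RIP value of any of the 8 IDs relative to input, at 45.1% of the counts it would hold at the input's share, and the variant 2 RIP reached 8.69%. RNU4-1 had 10 counts (2.55 CPM, 1.22 to 4.69) in the variant 1 RIP and 17 counts (3.26 CPM, 1.90 to 5.22) in the variant 2 RIP, against 831.45 (16.5 CPM) and 913.1 (15.5 CPM) in the inputs. Its RIPs lay within each other's intervals, at 15.5% and 21.0% of the input's share. Reads that match both copies can have been exchanged between them.

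RNU2-2P is a copy of the gene for U2, the RNA that selects the branch site, and overlaps WDR74 in RefSeq. It had 83.83 counts (21.4 CPM, 17.0 to 26.5) in the variant 1 RIP and 51 counts (9.79 CPM, 7.29 to 12.9) in the variant 2 RIP, against 7303.5 counts (145 CPM) and 9313.83 counts (158 CPM) in the inputs. The variant 1 RIP was above the variant 2 RIP beyond the counting intervals, and both were far under the inputs, at 14.8% and 6.18% of the input's share.

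RNU5A-1 and RNU5B-1 encode forms of U5, the RNA that holds the exon ends, and are adjacent in RefSeq. RNU5A-1 had 2 counts in the variant 1 RIP and 0 in the variant 2 RIP, against 987.08 counts (19.6 CPM) and 1119.73 counts (19.0 CPM) in the inputs. At the input's share it would have held 76.7 and 99.2 counts in RIP. RNU5B-1 had 0 counts in both RIPs, against 581.57 (11.5 CPM) and 650.07 (11.1 CPM) in the inputs, where the input's share would give 45.2 and 57.6 counts. RNU5A-1 and RNU5B-1 were thus at or near 0 in both RIPs. RNU4-2 and RNU2-2P had at least 51 counts in each RIP, but from inputs of 6386.45 counts or more. These raw RIP counts therefore do not compare the depletion of the IDs.

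The minor spliceosome IDs were sparse in RIP as well. RNU4ATAC, the minor counterpart of U4, had 8 counts (2.04 CPM, 0.881 to 4.02) in the variant 1 RIP and 0 in the variant 2 RIP, against 446 counts (8.84 CPM) and 496 counts (8.43 CPM) in the inputs. It overlaps CLASP1 and CLASP1-AS1 in RefSeq, and how reads in overlaps were assigned is not given. RNU6ATAC, the minor counterpart of U6, overlaps LOC124902297. It had 0 counts in the variant 1 RIP and 1 count in the variant 2 RIP, against 435.67 counts (8.63 CPM) and 638.13 counts (10.8 CPM) in the inputs.

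RNU11, which recognises the 5′ splice site of minor introns and overlaps TAF12-DT, had 2.5 counts (0.638 CPM, 0.106 to 2.04) in the variant 1 RIP and 14 counts (2.69 CPM, 1.47 to 4.51) in the variant 2 RIP, against 1109 counts (21.98 CPM) and 1358.5 counts (23.1 CPM) in the inputs. It is 1 of 2 IDs among the 8, with RNU4-1, whose RIP value was higher with variant 2 on more than 3 counts. Another ID, ENSG00000270103, had the same counts as RNU11 in 3 libraries and 1357.5 in the variant 2 input. The 2 IDs are therefore not independent measurements. If they shared the reads of a single RNA, its counts would be 5 and 28 in RIP and 2218 and 2716 in the inputs, with the same ratios.

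The RIPs of both constructs were compared with the inputs by edgeR's quasi-likelihood test on all 41622 IDs that passed its expression filter, with TMM scaling, a method that centres the libraries on the IDs that differ least. Each fraction thus had 2 samples, 1 per construct, with 2 residual degrees of freedom. edgeR moderates the spread of each ID with that of all tested IDs, so the p-values rest on more than these 2 degrees. They measure only the spread between these libraries, not between replicates of a construct. A call is a Benjamini-Hochberg adjusted p under 0.05. All 8 snRNAs passed the filter and all 8 were called lower, beside 15.8% of all tested IDs called lower and 49.5% called higher. Among the 9031 IDs whose summed input count lay within the range of the 8 (942 to 16617), 54.8% were called lower, and among the 15436 IDs that reached 50 counts in each input 42.2% were. A lower call was thus common at these input levels.

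The 8 IDs had a median log2 fold change of -4.71, and it was the same with RNU5B-1 set to its bound. It was 3.65 over all tested IDs, -1.47 over the 9031 IDs of the same input range and -1.15 over the 15436 IDs that reached 50 counts in each input. Scaling on library totals moved the median of these 15436 IDs to 0.05, that of the 9031 to -0.27 and that of the 8 snRNAs to -3.51. The median of the snRNAs minus that of the 15436 IDs was -3.56 log2 units with TMM, a difference that a change of scaling hardly alters by construction.

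**Figure D2:**
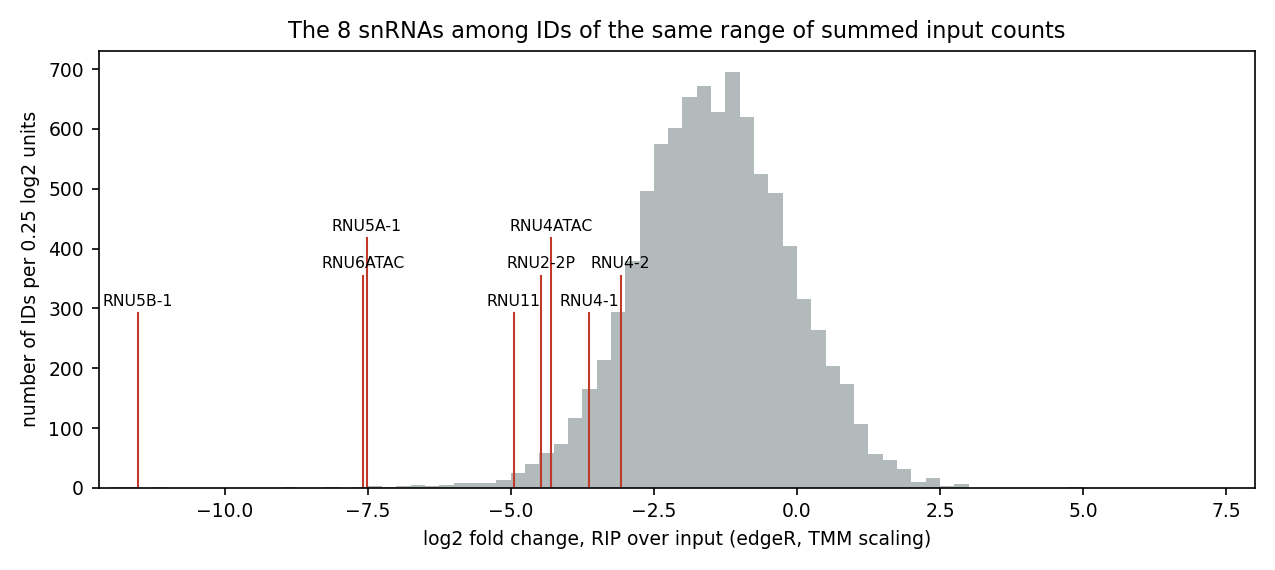
Histogram of edgeR's log2 fold change of RIP over input (TMM scaling, bars of 0.25 log2 units) for the 9031 IDs of the snRNAs' input range, with the snRNAs' own values as red lines. The snRNAs run from -3.08 for RNU4-2 down through the lower tail; RNU5B-1 has 0 counts in both RIPs, so its place depends on the prior count.

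Among the snRNAs with counts in both RIPs, RNU2-2P had the smallest error, with a log2 fold change of -4.46 ± 0.43 (SE, edgeR adjusted p = 0.0010). RNU4-1 was at -3.63 ± 0.71 (edgeR adjusted p = 0.0071) and RNU11 at -4.95 ± 0.88 (edgeR adjusted p = 0.0055). RNU4-2 was at -3.08 ± 0.70 (edgeR adjusted p = 0.011). Of the 9031 IDs of the same input range, 10.3% had a lower fold change than RNU4-2, 5.04% than RNU4-1, 1.55% than RNU2-2P and 0.786% than RNU11. These 4 have no settled order. The fitted log2 fold change of RNU4-2 was -4.73 without the variant 1 RIP and -2.31 without the variant 2 RIP, and that of RNU11 was -4.27 and -6.60. RNU2-2P was at -5.16 and -3.97 in the same fits, and RNU4-1 at -3.50 and -3.80. Without the variant 1 RIP, RNU4-1 was therefore nearest to 0 and RNU2-2P farthest.

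The other 4 had 0 counts in at least 1 RIP, so their fitted folds depend on the prior count. RNU5A-1 (edgeR adjusted p = 0.0042), RNU5B-1 (0.0045) and RNU6ATAC (0.0057) were called lower. RNU4ATAC passed narrowly (edgeR adjusted p = 0.0497), and with the construct as a replicate block its adjusted p was 0.096. The other 7 kept their calls under that block, beside 12.9% of all tested IDs called lower. The sum of the RIP counts was at most 2 for 3 of the 8 snRNAs (RNU5A-1, RNU5B-1 and RNU6ATAC). This held for 18 of the 9031 IDs of the same input range (0.199%), which include these 3. The limit of 2 was chosen after these values were seen, so the contrast is a description only. The direction was lower for all 8 under every alternative fit that was run. With library totals 6 of 8 were called, with RNU4-2 (edgeR adjusted p = 0.051) and RNU4ATAC (0.14) not passing, beside 7.72% of all tested IDs and 20.9% of those in the same input range called lower, and 58.3% of all called higher (88.3% of calls higher, against 75.8% with TMM). Without the variant 1 RIP, 5 of the 8 were called, beside 12.6% of all tested IDs, and without the variant 2 RIP, 6 of the 8, beside 13.5%.

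Each RIP was also set against its own input, with no test because each side is 1 library. All 8 IDs were at least 2-fold lower in RIP of variant 1, beside 23.1% of all tested IDs, and all 8 in RIP of variant 2, beside 21.2%. Within the same input range these shares were 63% and 64%. On library totals all 8 were again at least 2-fold lower with each variant, beside 14.3% and 11.9% of all tested IDs and 32.8% and 30.2% in the same input range. Ratios below are of TMM-scaled CPM, and those on library totals follow in each sentence. RNU4-2 was 5.02-fold lower in the variant 1 RIP (exact interval 4.39 to 5.76; 2.22-fold on library totals) and 25.9-fold lower in the variant 2 RIP (20.04 to 34.2; 11.5-fold). RNU2-2P was 15.3-fold lower with variant 1 (12.4 to 19.3; 6.77-fold) and 36.5-fold lower with variant 2 (27.7 to 49.0; 16.2-fold). For both IDs the depletion was smaller with variant 1, beyond counting error.

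RNU4-1 was 14.6-fold lower with variant 1 (7.92 to 30.7; 6.46-fold on library totals) and 10.7-fold lower with variant 2 (6.66 to 18.5; 4.76-fold), and these intervals overlap. RNU11 was 78.1-fold lower with variant 1 (24.3 to 471; 34.5-fold), from 2.5 counts, and 19.4-fold lower with variant 2 (11.5 to 35.5; 8.60-fold). RNU4ATAC was 9.82-fold lower with variant 1 (4.94 to 22.9; 4.33-fold) and at least 33.0-fold lower with variant 2 (14.6-fold). The bound for RNU4ATAC puts 3 counts in place of its 0, and its exact interval with TMM starts lower, at 26.7-fold. RNU11 and RNU4ATAC thus lay in opposite order between the variants, on 14 or fewer RIP counts each.

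For the U5 IDs and U6atac only bounds or wide intervals could be given. RNU5A-1 was 86.9-fold lower with variant 1 (24.0 to 719; 38.4-fold on library totals) and at least 74.5-fold lower with variant 2 (33.1-fold). RNU5B-1 was at least 34.1-fold lower with variant 1 (15.1-fold) and at least 43.3-fold lower with variant 2 (19.2-fold). RNU6ATAC was at least 25.6-fold lower with variant 1 (11.3-fold) and, from 1 count, 127-fold lower with variant 2 (22.8 to 5040; 56.5-fold). With 6 counts allowed for a 0, the smallest of these bounds becomes 12.8-fold with TMM and 5.64-fold on library totals.

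**Figure D3:**
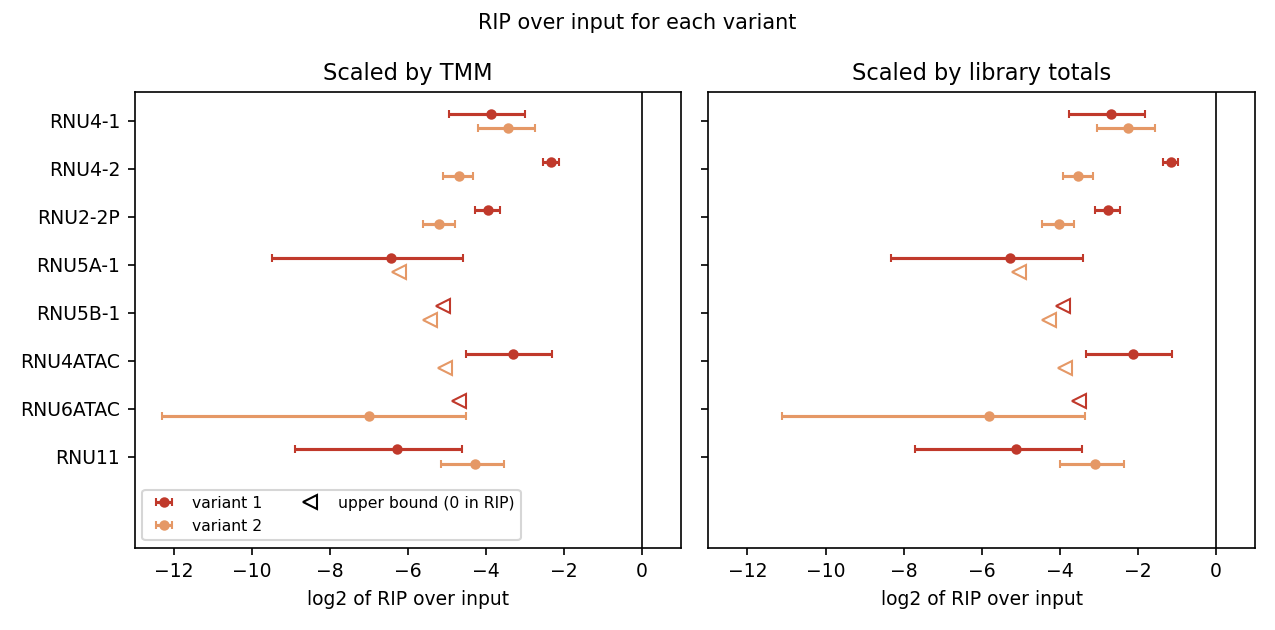
Log2 ratio of RIP over input for each snRNA with variant 1 (red) and variant 2 (orange), scaled by TMM (left) and by library totals (right), with exact 95% intervals for counting error; open triangles are upper bounds where RIP had 0 counts. All points lie left of 0 with both scalings, and RNU4-2 with variant 1 is nearest to 0 (5.02-fold lower with TMM and 2.22-fold on library totals).

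The RIPs of the variants were then set against each other, again without a test. RNU4-2 was 5.18-fold higher in the variant 1 RIP than in that of variant 2 (exact interval 3.87 to 7.04; 5.13-fold on library totals), and RNU2-2P 2.21-fold higher (1.54 to 3.19). RNU4ATAC, with 8 counts and 0, was 3.58-fold higher with variant 1 when 3 counts stood for the 0, or 1.79-fold when 6 did. Its exact interval, which also allows for error in the 8 counts, started lower than the first value, at 2.29-fold. In the other direction, the ratio of the variant 1 RIP to the variant 2 RIP was 0.240 for RNU11 (0.0359 to 0.933), from 2.5 and 14 counts. For RNU4-1 it was 0.790, and the interval of 0.323 to 1.83 includes equal levels. RNU5A-1, RNU5B-1 and RNU6ATAC had at most 2 counts in either RIP, and no difference between the variants was detectable at this depth.

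Log2 ratios used a prior count of 2 scaled to each library's size, so under 2 counts were added in each RIP. By these ratios 4 of the 8 were at least 2-fold higher with variant 1, beside 18.7% of all tested IDs. A further 2 were at least 2-fold lower, beside 22.8%. Within the same input range these shares were 10.9% and 15.5%. Those IDs were matched on input counts and not on RIP counts. Their median log2 fold change of RIP over input was -1.47, against -4.71 for the 8. The shares are thus not those of IDs with similar RIP counts. The snRNAs past 2-fold include RNU5A-1 (2 against 0 counts) among the higher and RNU6ATAC (0 against 1) among the lower. None of these differences has a replicate. The inputs of variants 1 and 2 differed by less than 2-fold for all 8 IDs, beside 14.1% of all tested IDs past 2-fold higher and 10.8% past 2-fold lower with variant 1. Within the same input range those shares were 0.886% and 1.17%. The ratio of the variant 1 input to the variant 2 input was 0.808 for RNU6ATAC (0.714 to 0.914) and 0.928 for RNU2-2P (0.900 to 0.957), and for the other 6 the intervals included equal levels. Between these bulk inputs, fewer cells with an snRNA and less of it per cell cannot be told apart.

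The make-up of the snRNA counts was alike in the inputs and differed between the RIPs. RNU4-2 made up 95.7% of the counts of the U4 pair in the variant 1 RIP (exact binomial interval 92.3% to 97.9%) and 77.3% in the variant 2 RIP (66.2% to 86.2%), against 88.5% (87.7% to 89.2%) and 89.2% (88.5% to 89.8%) in the matching inputs. The RIPs thus lay on opposite sides of the inputs, outside the counting intervals. U4 and RNU2-2P together made up 96.2% of the counts of the 8 IDs in the variant 1 RIP (93.6% to 98.0%) and 89.4% in the variant 2 RIP (83.1% to 93.9%), against 80.3% (79.7% to 80.9%) and 80.6% (80.1% to 81.2%) in the inputs.

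The 3 minor IDs made up 3.18% of the counts of the 8 in the variant 1 RIP (1.57% to 5.69%) and 10.6% in the variant 2 RIP (6.08% to 16.9%), against 11.01% (10.6% to 11.5%) and 11.3% (10.9% to 11.7%) in the inputs. The minor share was under that of the inputs in the variant 1 RIP beyond counting error, and in the variant 2 RIP the interval included the inputs. The minor IDs did not move alike in the variant 1 RIP. RNU4ATAC, on 8 counts, held 2.42% against 2.47% in its input, and RNU11 0.757% against 6.13%. Of the major IDs only RNU4-2 held a larger share than in that input, 67.8% against 35.3%. These shares are of counts and take no account of RNA length, so they compare libraries and not the abundance of 1 snRNA with another.

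**Figure D4:**
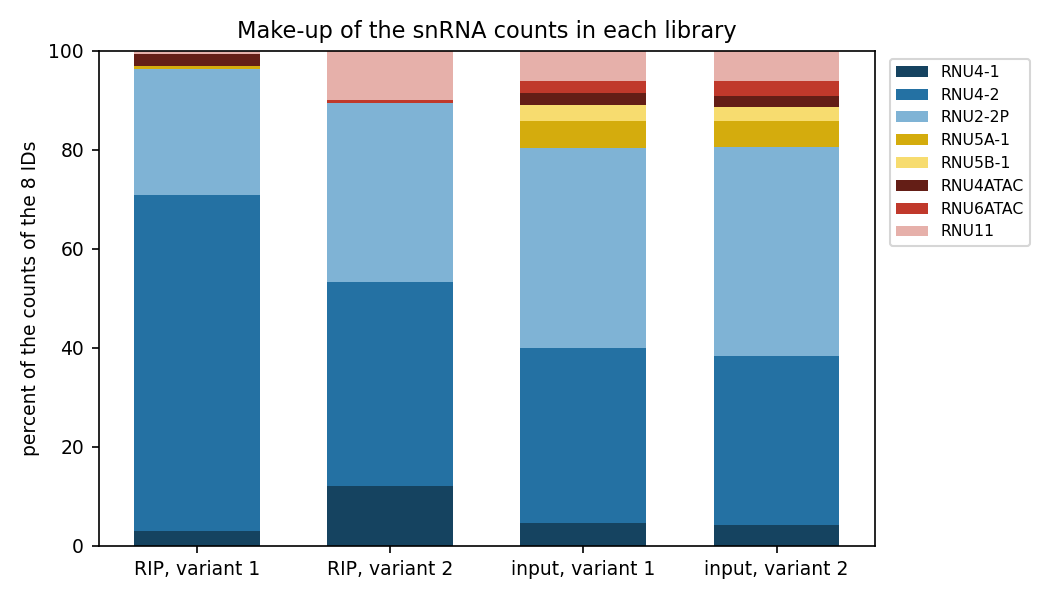
Percent of the summed counts of the 8 snRNA IDs that each ID holds, for the RIPs (left) and the inputs (right), 1 library per bar. RNU4-2 and RNU2-2P fill most of every bar, those of the inputs included. The U5 IDs hold 5.46% (RNU5A-1) and 3.22% (RNU5B-1) in the variant 1 input, and 0.605% and 0% in the variant 1 RIP.

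The IDs most like the snRNAs over the 4 libraries were found by the Euclidean distance of log2 TMM-scaled CPM, with 2 neighbours taken for each of the 8. The nearest was ENSG00000270103 for RNU11, at 0.0011 log2 units. The next was ENSG00000267688 for RNU5B-1, at 0.15 log2 units, with 0 counts in both RIPs and 643.5 and 626.5 counts in the matching inputs. Neither ID is named in the tables used here.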

How the data were processed

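HISAT2 2.1.0, featureCounts (Subread 2.0.0) and GRCh38.p13 are named in the submitters' processing notes; not given in the sources used here are the annotation, strand setting, RNA selection and handling of multi-mapping or overlapping reads. The deposited files hold estimated counts per Ensembl gene ID, not normalized as far as column names and totals show. The 8 IDs and all lists were chosen with earlier results of these data known, and all 8 are named in every comparison. Lists of spliceosomal proteins, other snRNAs and cell markers were not analysed, since RefSeq's table (GRCh38.p14, 59792 genes) pairs 0 genes with an Ensembl ID. It served for names and neighbours.

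Rounded counts were fitted with edgeR 4.0.16 (R 4.3.3), TMM and filterByExpr (minimum count 10) on fraction. The SE is the log2 fold change over the square root of F. Ratios of single libraries use counts as deposited (scipy 1.17.1), 3 counts in place of a 0 for bounds, and a prior count of 2 for log2 ratios. That prior was scaled to each library's size relative to the mean of the 4 libraries. DESeq2 1.42.0 and limma 3.58.1 were alternatives. The labels pair each RIP with the input of the same transfected cells. Over tested IDs, the RIP difference and the input difference of the variants correlated at -0.0045.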

Additional observations from a re-analysis of the deposited data

How the results depend on the processing

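The 8 lower calls among the snRNAs became 7 with DESeq2 size factors (beside 13.3% of all tested IDs called lower), a minimum of 50 counts in 2 or more libraries (20.6%), the construct as a replicate block (12.9%), or a fit restricted to IDs that reached 50 counts in each input (23.7%), and 6 with library totals (7.72%). They stayed at 8 with limma-voom (15%), halved counts (18.2%), the DESeq2 Wald test (14.4%) and no filter (12.7%). They were 5 to 8 when 1 library was left out: 5 without the variant 1 RIP (12.6%), 6 without the variant 2 RIP (13.5%) and 8 without the variant 1 input (13.3%) or the variant 2 input (14.6%). The fit then takes the spread of a lone library from the other fraction. Of the 104 refits of single snRNAs, 93 kept their call, 11 lost it (7 of these RNU4ATAC, whose adjusted p ran from 0.0094 to 0.14) and 0 turned direction. RNU4-1 lost its call without the variant 1 RIP (adjusted p = 0.059) or the variant 2 RIP (0.054), and RNU6ATAC without the variant 1 RIP (0.066). Over all IDs, the 20595 higher calls were 8195 under that minimum, 8289 with the replicate block, 3418 when IDs past 50 counts in both inputs were fitted alone, and 938 to 18394 with 1 library left out. The 6583 lower calls were 3213 with library totals, 3655 for those IDs alone, and 5275 to 6452 with 1 library left out. Fewer IDs are tested under a filter; the cause was otherwise not tested. With halved counts, 1 in place of 2 snRNAs was at least 2-fold lower in the variant 1 RIP than in the variant 2 RIP. With limma-voom, RNU4-1 (log2 fold change -3.60) was nearer to 0 than RNU4-2 (-3.68). Depth limits every value that rests on few RIP counts. RNU4-2 and RNU2-2P had the most counts in RIP and so the least counting error, but the SE of RNU4-2 in the fit (0.70) was close to that of RNU4-1 (0.71).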

Other observations

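In the inputs, RNU4-1 and RNU4-2 had the same fractional part of a count, 0.45 in the input of variant 1 and 0.1 in that of variant 2, while both had whole counts in both RIP libraries. How the reads of the U4 copies were divided was not tested. RefSeq lists 89 pseudogenes named after U4, 68 after U2, 41 after U6atac, 17 after U4atac, 7 and 5 after the A and B forms of U5, and 5 after U11. Reads assigned to them were not analysed here.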
